A study of Mus musculus with 10 samples.

Results

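Chmp2b encodes a subunit of ESCRT-III, the membrane-cutting machine of the endosomal sorting pathway, and it is described here beside the 9 other measured genes of that machine: Chmp1a, Chmp1b, Chmp2a, Chmp3, Chmp4b, Chmp4c, Chmp5, Chmp6 and Chmp7. These 10 genes were found by their symbols among 55487 genes of the deposited count table, and all 10 had enough counts to be tested, of 16565 genes tested in all. Chmp2b itself was chosen from its measured values in these tumours, namely a small difference between the groups with little spread between tumours. That difference is therefore given as a description. Its standard errors and intervals only show the spread, and no call on it counts as a test. The 9 other genes entered by name as the family of Chmp2b.

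The samples were primary pancreatic tumours of mice of the KPF model of pancreatic cancer on the C57BL/6J background. Animals were used at 6 to 12 weeks of age, and the labels do not spell out the alleles behind the name KPF. In 5 tumours Grem1 was wild-type and the mice had been given peanut oil as vehicle. The 5 other tumours are labelled Grem1-deleted on both alleles, and those mice had been given tamoxifen at 100 mg/kg. Either agent was given once daily for 5 days from 5 weeks of age, so genotype and tamoxifen cannot be told apart. Grem1 encodes gremlin 1, a secreted inhibitor of bone morphogenetic proteins. The promoter or cell type behind the inducible deletion is not named in the labels.

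ESCRT-III proteins are small and exist as soluble monomers until they assemble into filaments on a membrane. The filaments narrow the neck of a bud or tube from its inner side, and the ATPase VPS4 then takes them apart. Cells use the reaction to form multivesicular bodies, which deliver growth factor receptors to lysosomes, and also to separate daughter cells, to seal the nuclear envelope and to repair the plasma membrane. Within the filament, CHMP6 starts assembly, CHMP4 proteins form the main polymer, CHMP3 and the CHMP2 proteins join it and recruit VPS4, and CHMP1 and CHMP5 proteins act around disassembly. CHMP2B is also known from familial frontotemporal dementia, in which its C-terminal end is altered.

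Before any result, the targeted gene was read in every library. Grem1 stood at 15.7, 43.1, 23.0, 3.97 and 9.48 CPM (estimated counts scaled to a common library size) in wild-type tumours 1 to 5, and at 47.6, 110.1, 12.6, 6.83 and 23.7 CPM in labelled-deleted tumours 1 to 5. It was thus not lower in the tumours labelled deleted (log2 fold change 1.08, SE 0.79, edgeR adjusted p = 0.761, 5 tumours a group). The group is called labelled deleted throughout for that reason. Library totals ran from 10159891 to 18571519 estimated counts, of which Chmp2b took 698 to 1385. The titles also carry a tumour ID number whose meaning is not given, and 8 tumours have one that occurs in both groups. The labels call the material bulk tumour tissue and also speak of sorted cells. Epithelial markers were all above 1 CPM in every library (6 of 6), as were fibroblast (7 of 7), macrophage (6 of 6) and endothelial (5 of 5) markers, while the lymphocyte gene Cd3e was at 0 in wild-type tumours 2 and 4. In labelled-deleted tumour 1 the epithelial markers summed to 1720 CPM, below the 3224 to 5299 CPM of the 9 other tumours. Labelled-deleted tumour 2 held 2687 CPM of intestinal epithelium markers against 37.3 to 123.6 CPM elsewhere. Values without these 2 libraries are given where leaving them out moved a result.

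Mouse Chmp2b lies on chromosome 16 from 65539128 to 65562726 on the minus strand (GRCm38), where its longest transcript has 6 exons. Chmp2a, which encodes the other CHMP2 protein, lies on chromosome 7 from 13032010 to 13034807, also on the minus strand and with 6 exons. The coding sequences have 639 and 666 bases, for 213 and 222 amino acids. The end of each coding sequence is shown because it encodes the C-terminal tail, the part of CHMP2 proteins that VPS4 binds, and because it shows how far reads of the pair can be told apart. Below are the last 60 coding bases before the stop codon from GENCODE M21 transcripts, with capitals at the 27 bases that are identical in both when the ends are aligned without gaps.
Chmp2b: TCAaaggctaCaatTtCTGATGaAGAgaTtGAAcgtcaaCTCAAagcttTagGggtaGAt
Chmp2a: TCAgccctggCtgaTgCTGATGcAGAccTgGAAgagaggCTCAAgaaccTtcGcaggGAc
The longest run of bases shared anywhere between the transcripts of this pair was 11 bases. Over all 45 pairs of members it was 17 bases, between Chmp4b and Chmp4c, and over the 9 pairs that include Chmp2b it was 13 bases. No exon base of Chmp2b or Chmp2a overlaps another annotated gene. Exons of Chmp1b overlap an unnamed gene of the other strand over 24.0% of their length, Chmp3 overlaps one over 2.95% and Chmp4c overlaps Snx16 over 3.27%. Without a stated strand setting, reads there cannot be told apart.

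The upstream sequences of Chmp2b and Chmp2a are shown because this pair encodes the CHMP2 proteins. Each is the 250 bases before the start of the gene in RefSeq (GRCm38.p6), at chr16:65562763-65563012 for Chmp2b and chr7:13034778-13035027 for Chmp2a, read on the minus strand. Capitals mark the letters TGCGCA, the core of the sites of the factor NRF1.
Chmp2b: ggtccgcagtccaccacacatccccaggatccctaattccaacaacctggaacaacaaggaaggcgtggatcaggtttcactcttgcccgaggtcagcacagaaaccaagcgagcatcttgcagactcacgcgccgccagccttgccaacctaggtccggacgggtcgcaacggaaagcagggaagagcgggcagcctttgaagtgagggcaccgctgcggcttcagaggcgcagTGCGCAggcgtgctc
Chmp2a: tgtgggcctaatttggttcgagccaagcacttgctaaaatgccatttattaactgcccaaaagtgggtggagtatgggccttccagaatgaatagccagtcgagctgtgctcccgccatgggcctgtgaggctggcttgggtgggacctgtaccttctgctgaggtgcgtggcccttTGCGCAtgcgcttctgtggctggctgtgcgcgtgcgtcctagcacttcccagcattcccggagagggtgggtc
Each of these windows holds TGCGCA once, as do 6.43% of 32851 promoter windows of the same length. It is not particular to the pair, since Chmp3 and Chmp5 also have a window with it, which makes 4 of the 6 members that have a window. Further motifs were searched on both strands and were in neither window. The ETS core, searched as CCGGAA, is in 12.0% of all windows. The cyclic AMP response element, searched as TGACGTCA, is in 1.55%. The E-box, searched as CACGTG, is in 6.02% and the TATA box, searched as TATAAA, is in 12.4%. A match is only a match of letters.

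Chmp2b was measured at 98.7, 93.1, 87.6, 84.5 and 90.8 CPM in wild-type tumours 1 to 5. In labelled-deleted tumours 1 to 5 it stood at 62.1, 70.8, 69.6, 69.3 and 75.2 CPM. All 5 labelled-deleted tumours were below every wild-type tumour, with a gap from 75.2 to 84.5 CPM. The means were 90.9 ± 5.40 and 69.4 ± 4.72 CPM (SD, n = 5 and 5), a ratio of 0.763 and a log2 fold change of -0.39 (SE 0.073). Its SD within groups was 0.0927 on the log2 scale, and 2.73% of tested genes had a smaller one. Low spread was not particular to Chmp2b. The same share was 3.27% for Chmp2a, 3.85% for Chmp3, 5.49% for Chmp5, 7.08% for Chmp7 and 8.64% for Chmp1a. It was 12.7% for Chmp4b, 12.8% for Chmp1b, 34.1% for Chmp6 and 83.9% for Chmp4c. Over all tested genes, 0.435% had every labelled-deleted tumour below every wild-type tumour and 0.495% had every one above. The values of Chmp2b chose the gene, so they support nothing further. Without labelled-deleted tumours 1 and 2 the log2 fold change was -0.35. In bulk tissue, fewer cells of a type and less RNA per cell cannot be told apart. The epithelial markers summed to 4340 to 5299 CPM in wild-type tumours and to 1720 to 4704 CPM in labelled-deleted ones. Macrophage markers summed to 2554 to 4486 CPM in wild-type tumours and to 1148 to 3717 CPM in labelled-deleted ones. The part of these markers in the level of Chmp2b was not tested.

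Chmp2a gave 88.0, 74.3, 81.7, 73.1 and 78.7 CPM in the wild-type tumours and 71.5, 80.6, 69.7, 70.9 and 72.0 CPM in the labelled-deleted ones. The groups overlapped, since labelled-deleted tumour 2 lay above 3 wild-type tumours. Its log2 fold change was -0.12 (SE 0.075, 95% interval -0.29 to 0.05), edgeR adjusted p = 0.759. Without labelled-deleted tumours 1 and 2 it was -0.16.

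Chmp3, whose product joins the filament with the CHMP2 proteins, had the lowest unadjusted p of the 9 members other than Chmp2b. It gave 116.3, 97.6, 98.5, 108.8 and 104.7 CPM in wild-type tumours and 87.5, 95.4, 83.6, 90.8 and 98.8 CPM in labelled-deleted tumours. Only labelled-deleted tumour 5 reached into the wild-type range, above wild-type tumours 2 and 3. The log2 fold change was -0.21 (SE 0.076, 95% interval -0.37 to -0.04), with an unadjusted p of 0.0222 and an adjusted p of 0.759 in edgeR. Chmp3 therefore did not pass the test. Of all tested genes 5.93% had an unadjusted p under 0.05, and among the 9 members other than Chmp2b Chmp3 alone did.

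**Figure D1:**
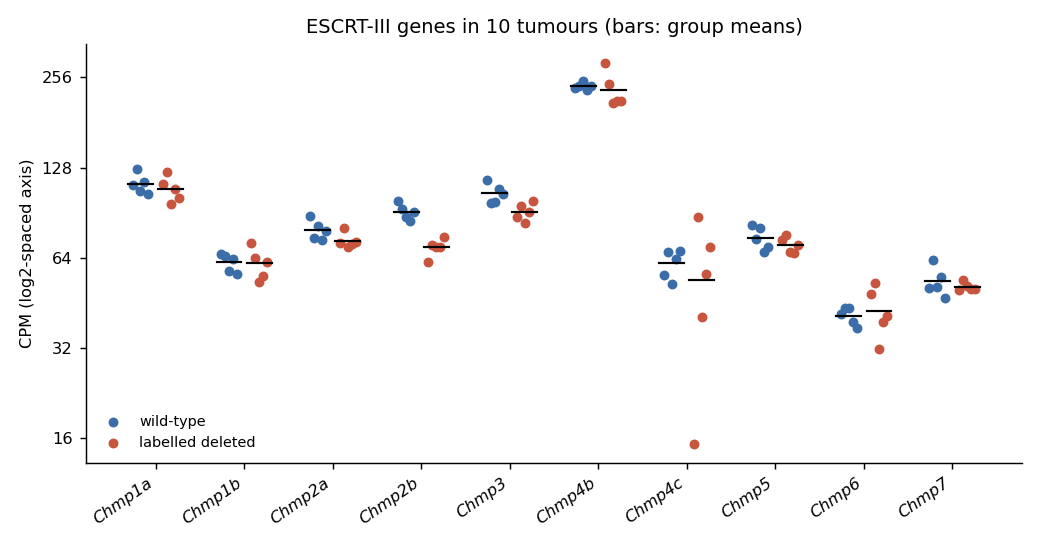
CPM of the 10 ESCRT-III genes in each tumour, on a log2-spaced axis, with wild-type tumours in blue, labelled-deleted tumours in red and group means as bars (n = 5 and 5). Chmp2b is the member whose groups lie apart, with 62.1 to 75.2 CPM against 84.5 to 98.7 CPM, and Chmp4c in labelled-deleted tumour 1 lies far below its other values at 15.3 CPM.

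The CHMP4 genes encode the main filament protein. Chmp4b, the form with the most reads, gave 236, 240, 249, 232 and 239 CPM in wild-type tumours. In labelled-deleted tumours it gave 286, 243, 209, 214 and 213 CPM, a wider range on both sides of the wild-type values. The means were 239 ± 6.30 and 233 ± 32.6 CPM (SD, n = 5 and 5). The difference of -0.04 on the log2 scale (SE 0.096) did not pass the test (edgeR adjusted p = 0.928). It was -0.12 without labelled-deleted tumour 1, -0.18 without labelled-deleted tumours 1 and 2, and -0.02 or -0.01 without tumour 3, 4 or 5 of that group or wild-type tumour 3.

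Chmp4c encodes the CHMP4 form that acts with Aurora B kinase in the checkpoint that delays the last cut between daughter cells. It varied most of the family, with 56.1, 66.9, 52.3, 63.5 and 67.3 CPM in wild-type tumours and 15.3, 87.8, 40.7, 56.5 and 69.5 CPM in labelled-deleted tumours. Labelled-deleted tumour 1 was the lowest and labelled-deleted tumour 2 the highest of all 10, a 5.74-fold range. Its SD within groups was 0.70 on the log2 scale, and 83.9% of tested genes had a smaller one. The log2 fold change of -0.18 (SE 0.36, 95% interval -0.98 to 0.62) turned to 0.06 without labelled-deleted tumour 1, and was -0.42 without labelled-deleted tumour 2 and -0.14 without both. Labelled-deleted tumour 1 also had the lowest sums of epithelial, fibroblast, macrophage, endothelial and intestinal epithelium markers. Each epithelial gene was lowest there, but the genes of the other lists were not all so. The fibroblast gene Pdgfrb was the highest of all 10 at 353.4 CPM, and Pdgfra at 226.8 CPM was above every wild-type tumour. Cd68, Mrc1, C1qa and Cdh5 were not lowest in it, and Vil1 alone gave 27.4 of the 37.3 CPM of the intestinal sum. The part of these markers in the level of Chmp4c was not tested.

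Chmp6 encodes the subunit that ESCRT-II recruits to start the filament. It gave 41.7, 43.4, 43.6, 39.06 and 37.3 CPM in wild-type tumours and 48.5, 52.8, 31.7, 39.0 and 40.8 CPM in labelled-deleted tumours. It was the 1 member with a positive log2 fold change (0.05, SE 0.13), and the sign turned to -0.04 without labelled-deleted tumour 2 and to -0.14 without labelled-deleted tumours 1 and 2. Labelled-deleted tumours 1 and 2 were above all wild-type tumours and labelled-deleted tumour 3 was below them all.

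The 4 other members act around disassembly and at the nuclear envelope. Chmp1a ran from 104.5 to 126.5 CPM in wild-type and from 96.9 to 123.8 CPM in labelled-deleted tumours (log2 fold change -0.06, SE 0.087). Chmp1b ran from 56.7 to 66.0 CPM and from 53.2 to 71.5 CPM (-0.01, SE 0.094), and its sign turned when wild-type tumour 1 (0.01), labelled-deleted tumour 3 (0.02) or labelled-deleted tumour 4 (0.01) was left out. Chmp5, whose product binds the VPS4 activator LIP5, ran from 67.0 to 82.2 CPM and from 66.3 to 76.2 CPM (-0.08, SE 0.080). Chmp7, which brings ESCRT-III to the reforming nuclear envelope, gave 50.9, 62.8, 51.0, 55.2 and 46.9 CPM in wild-type tumours. In labelled-deleted tumours it gave 50.1, 53.8, 51.6, 50.1 and 50.2 CPM, the narrowest spread of the members within that group (51.2 ± 1.59 CPM against 53.3 ± 6.03 CPM in the wild-type group, SD, n = 5 and 5). None of these 4 genes passed the test, and the groups overlapped for each. Without labelled-deleted tumours 1 and 2 the log2 fold changes were -0.14 for Chmp1a, -0.12 for Chmp1b, -0.135 for Chmp5 and -0.08 for Chmp7. Labelled-deleted tumour 3 was the lowest of all 10 tumours for 6 members: Chmp1a, Chmp1b, Chmp2a, Chmp3, Chmp4b and Chmp6. The share of all tested genes that were lowest in this tumour is not given here, so the count is no trait of the family.

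Across the family, 9 of 10 members had a negative log2 fold change, with a median of -0.07. Without Chmp2b the count was 8 of 9 and the median -0.06, beside 7444 of 16565 and 0.03 over all genes tested. That median was -0.10 without labelled-deleted tumour 2, -0.10 without wild-type tumour 5 and -0.14 without labelled-deleted tumours 1 and 2. In edgeR 0 of 10 members passed an adjusted p of 0.05, and the share over all tested genes was 0%, with 983 genes at an unadjusted p under 0.05. DESeq2 called 7 of 31198 genes with an adjusted p (0.0224%), among them 1 member, Chmp2b. It had been chosen on this contrast, so that call is no test of it. Chmp2b had the lowest log2 fold change of the family in 20 of 21 other settings of the fit. The exception was the fit without labelled-deleted tumour 2, in which Chmp4c stood at -0.42. These settings reuse the tumours on which Chmp2b was chosen, so its place in them is a description and no support. Over those 21 settings 8 to 10 members were negative, and 9 were under each other scaling of the libraries.

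Levels were next compared within each library, which sets aside differences in scaling between libraries. The log2 CPM of Chmp2b minus the mean log2 CPM of the 9 other members was 0.26, 0.16, 0.16, 0.09 and 0.24 in wild-type tumours 1 to 5. In labelled-deleted tumours it was -0.17, -0.29, 0.05, -0.08 and -0.04. Every labelled-deleted tumour was below every wild-type tumour also on this scale. The means of the differences were 0.18 ± 0.07 and -0.11 ± 0.13 (SD, n = 5 and 5), so the group difference was -0.29. The choice of Chmp2b used the same values, so this is again a description. The 9 other members, treated in the same way, overlapped between the groups. Chmp4c had a group difference of the same size, -0.29, with far more spread in labelled-deleted tumours (SD 0.98 against 0.19 in wild-type tumours). When Chmp4c was left out of the mean, a choice made after its value in labelled-deleted tumour 1 was seen, the group difference of Chmp2b was -0.32 and the groups did not overlap. Without labelled-deleted tumours 1 and 2 it was -0.20 against all 9 members and -0.21 against the 8.

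Set against single members, Chmp2b separated the groups in 3 of 9 cases. Each ratio holds the values that chose Chmp2b, so these too are descriptions. The group differences in log2 ratio were -0.37 against Chmp1b, -0.27 against Chmp2a and -0.32 against Chmp5. Against Chmp3 the difference was -0.19 and the groups overlapped. Against Chmp4c it was 0.001, with labelled-deleted tumours spread from -0.31 to 2.01. The ratio of Chmp2b CPM to Chmp2a CPM was 1.12, 1.25, 1.07, 1.16 and 1.15 in wild-type tumours and 0.868, 0.879, 0.999, 0.977 and 1.04 in labelled-deleted tumours. Reads of Chmp2b thus exceeded those of Chmp2a in all 5 wild-type tumours and in labelled-deleted tumour 5, while the 4 other labelled-deleted tumours had fewer. The mean ratio was 1.15 ± 0.066 in wild-type and 0.953 ± 0.077 in labelled-deleted tumours (SD, n = 5 and 5), or 1.01 ± 0.035 over labelled-deleted tumours 3 to 5.

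**Figure D2:**
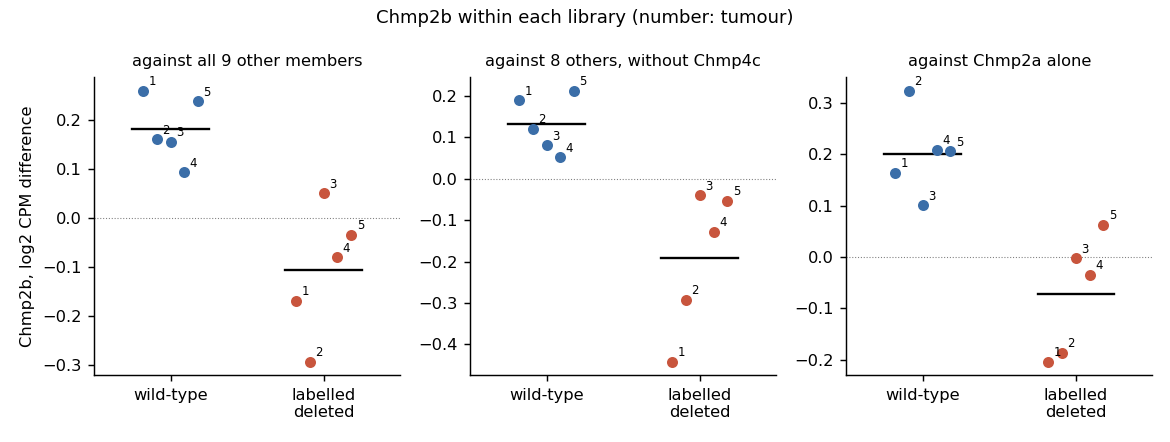
Log2 CPM of Chmp2b minus the mean log2 CPM of all 9 other members (left), of 8 members without Chmp4c (middle) and of Chmp2a alone (right), 1 point per tumour with its number and a bar at each group mean (n = 5 and 5). In each panel the 5 labelled-deleted tumours lie below the 5 wild-type tumours, with group differences of -0.29, -0.32 and -0.27. Each panel holds the values that chose Chmp2b and is a description.

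Read counts favour long transcripts, so levels between genes were compared as CPM per kilobase of exon, using the union of annotated exons. Chmp4b was highest at 116.5 ± 11.0 CPM per kb (SD over all 10 tumours), followed by Chmp2a at 65.5 ± 5.12, Chmp5 at 47.8 ± 3.69 and Chmp2b at 41.6 ± 6.39. Chmp1a stood at 33.9 ± 2.84, Chmp3 at 30.2 ± 3.03 and Chmp1b at 24.4 ± 2.21 CPM per kb. The lowest levels per length were those of Chmp6 at 17.2 ± 2.41, Chmp7 at 8.29 ± 0.685 and Chmp4c at 5.71 ± 1.92 CPM per kb. Neighbours in this order did not overlap over the 10 tumours for Chmp4b and Chmp2a, for Chmp2a and Chmp5, and for Chmp6 and Chmp7. The other neighbours overlapped in range. Chmp5 was above Chmp2b in 9 of 10 tumours, and Chmp2b was above Chmp1a in 8 of 10. The order in the middle depends on the length used. With the longest transcript as the length, Chmp1a (51.8 ± 4.35 CPM per kb) stood above Chmp5 (47.8 ± 3.69) and Chmp2b (42.8 ± 6.58), Chmp2b was above Chmp1a in 1 of 10 tumours, and Chmp6 (26.8 ± 3.77) stood above Chmp1b (24.4 ± 2.21).

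The summed level of the family was 405 ± 13.7 CPM per kb in wild-type and 377 ± 27.3 CPM per kb in labelled-deleted tumours (SD, n = 5 and 5), with a range from 345 to 425 over all 10. Over labelled-deleted tumours 3 to 5 alone it was 358 ± 12.4 CPM per kb, and each of these lay below every wild-type tumour. Labelled-deleted tumours 1 and 2, at 402 and 408 CPM per kb, lay within the wild-type range of 390 to 425. The gap thus comes from leaving them out, a choice made after the data were seen, and is a description. The sum includes Chmp2b. Chmp2b made up 12.0, 11.8, 11.1, 11.2 and 11.9% of the summed level in wild-type tumours and 8.01, 9.01, 10.5, 10.01 and 10.5% in labelled-deleted tumours. Its mean share over all tumours was 10.6%, or 8.88% when the longest transcript was used as the length. Labelled-deleted tumours 3 to 5 alone gave a mean share of 10.3 ± 0.288% against 11.6 ± 0.422% in wild-type tumours. Labelled-deleted tumours 1 and 2 held the lowest shares of Chmp2b, and labelled-deleted tumour 1 also had the highest CPM of Chmp4b.

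**Figure D3:**
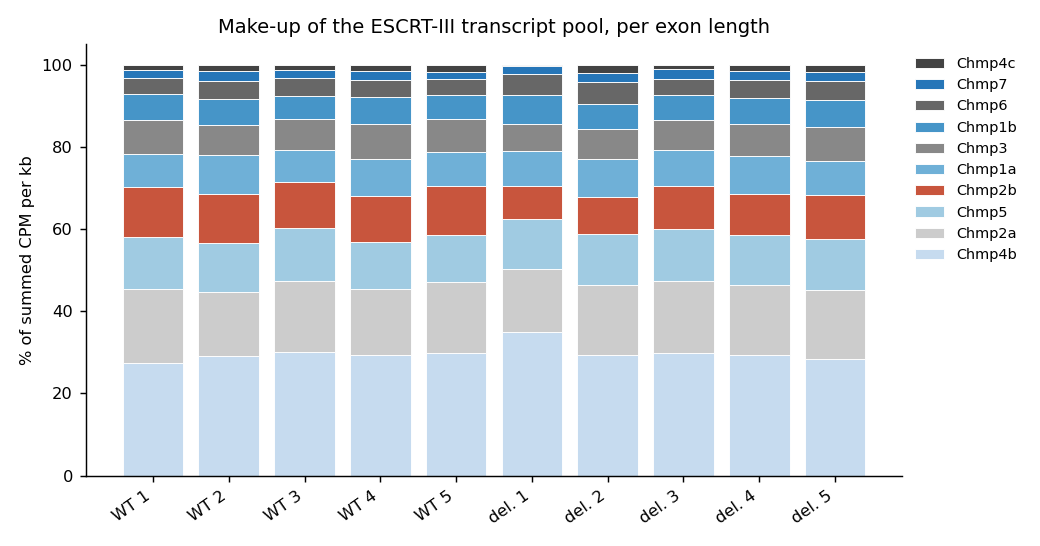
Share of each ESCRT-III gene in the summed CPM per kb of the family (stacked to 100%) in each tumour, with Chmp2b in red. Chmp2b takes 11.1 to 12.0% in wild-type tumours and 8.01 to 10.5% in labelled-deleted tumours, and Chmp4b is the broadest band in every tumour.

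Over the 10 tumours, 38 of 45 pairs of members had a positive Pearson r of log2 CPM, with a median of 0.281. All values share the same libraries and scaling. With each group's mean subtracted, the median r was 0.230. It was 0.524 over the 9 tumours other than labelled-deleted tumour 1. No pair passed Benjamini-Hochberg adjustment over the 45 pairs by r or by Spearman's rho (permutation tests, 100000 resamples). Chmp2a and Chmp5 had the highest r, 0.83, with rho 0.84 and a permutation p of 0.00299 (adjusted 0.068). It was 0.57 without the 2 tumours farthest from the median and 0.82 with group means subtracted. Chmp2b and Chmp3 followed with r = 0.82 and rho = 0.78. For this pair r was 0.50 with group means subtracted, and 0.70 without the 2 farthest tumours. Chmp4b and Chmp4c, the 2 forms of the main filament protein, had r = -0.56, which turned to 0.42 without labelled-deleted tumour 1. Chmp2b and Chmp4b likewise had r = -0.05 over all tumours and 0.65 without that tumour.

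**Figure D4:**
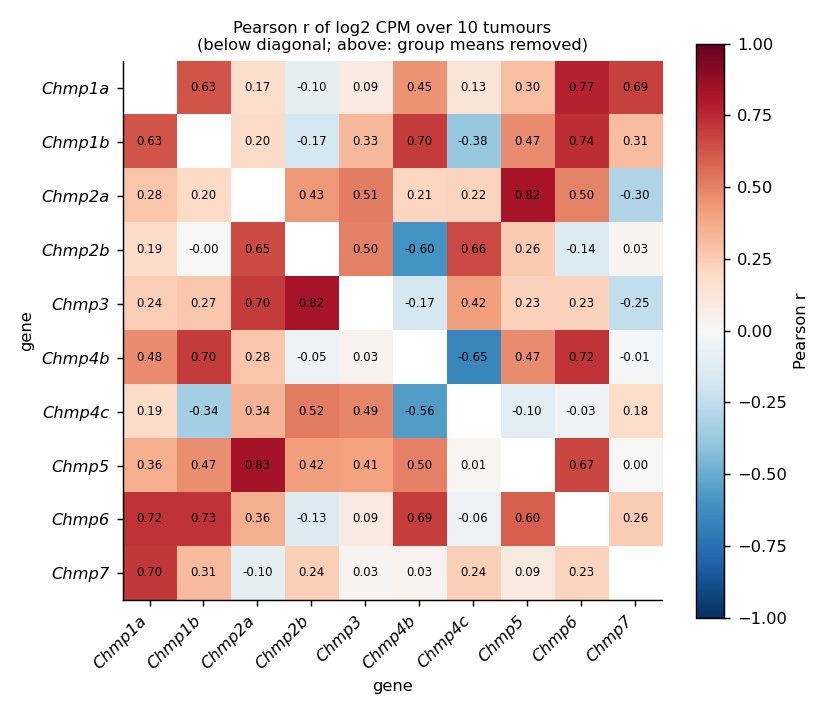
Pearson r of log2 CPM between each pair of members over 10 tumours (below the diagonal) and after subtraction of each group's mean (above it), on a colour scale from -1 to 1. The darkest cells below the diagonal are Chmp2a with Chmp5 (0.83) and Chmp2b with Chmp3 (0.82), and the bluest is Chmp4b with Chmp4c (-0.56).

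Genes whose levels followed Chmp2b most closely were ranked by Pearson r over the 10 tumours among all tested genes. The 5 highest were Stx19 (0.950), Asb4 (0.940), Stx7 (0.914), Vsig1 (0.901) and the gene model Gm47547 (0.901). Stx7 encodes a syntaxin of late endosomes and had means of 131.8 and 105.6 CPM in wild-type and labelled-deleted tumours. Its r was 0.562 once group means were subtracted. Stx19, another syntaxin, was measured at means of only 1.54 and 0.620 CPM. The lowest r belonged to Znhit6 (-0.944), Hipk3 (-0.934) and Rybp (-0.925). A gene that also differs between the groups gains in this ranking, since the group difference is part of r. With group means subtracted the 5 highest were Mroh3 (0.975), Gm47486 (0.956), Dennd2c (0.951), Gm47738 (0.950) and Tmem72 (0.934), none of them among the first 5. Within the family, Chmp3 ranked 85th in likeness to Chmp2b over all tumours, Chmp2a 995th, Chmp4c 2437th and Chmp4b 8718th. The ranking depends on labelled-deleted tumours 1 and 2. Over the 8 other tumours Asb4 came first (r = 0.984) and was the 1 gene of the first 5 to stay among them, while Stx7 ranked 25th (0.892). Chmp4b then ranked 29th (0.883), Chmp2a 122nd and Chmp3 157th.

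Protein-coding genes within 500 kb of the start of Chmp2b on chromosome 16 were also read. Pou1f1, a pituitary transcription factor, reached at most 0.236 CPM. Htr1f, a serotonin receptor gene, was at 0 in all 10 libraries. Vgll3, a cofactor of TEAD factors, ran from 9.43 to 62.6 CPM with a log2 fold change of -0.32 (SE 0.37, edgeR adjusted p = 0.827).

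The rest of the pathway was described from 6 lists with 34 genes in all, every one of which was tested. In edgeR 0 of 34 passed an adjusted p of 0.05, 1 had an unadjusted p under 0.05 (5.93% of all tested genes), and none separated the groups. Their log2 fold changes were positive for 20 and negative for 14, with a median of 0.03, equal to that of all tested genes to 2 decimals. The median of each list kept its sign under the 3 other scalings. Without labelled-deleted tumours 1 and 2 the medians of the VPS4 genes, of the adaptors and of the abscission partners turned negative. That of the VPS4 genes also did without wild-type tumour 3 or labelled-deleted tumour 1 alone. A block by tumour ID number turned the medians of the VPS4 genes and of the abscission partners as well.

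ESCRT-0 binds ubiquitylated cargo. Its 3 genes had positive log2 fold changes with a median of 0.16, led by Stam at 0.25 (SE 0.13), and none passed the test. The median was 0.09 without labelled-deleted tumour 1 and 0.03 without labelled-deleted tumours 1 and 2. ESCRT-I, which takes over the cargo, had 2 positive and 7 negative genes with a median of -0.02. Tsg101, its central subunit, had means of 78.0 ± 5.27 and 67.8 ± 8.42 CPM (SD, n = 5 and 5; log2 fold change -0.20, SE 0.098). Mvb12b was the 1 gene with an unadjusted p under 0.05 (log2 fold change -0.31, SE 0.13; unadjusted p = 0.0381, adjusted p = 0.759 in edgeR). ESCRT-II connects ESCRT-I to CHMP6, and its 3 genes had negative values with a median of -0.16. Among them Vps36 had means of 55.5 ± 3.65 and 49.7 ± 2.23 CPM (SD, n = 5 and 5; log2 fold change -0.16, SE 0.071) and did not pass the test.

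The ATPases that take ESCRT-III apart did not pass the test either. Vps4b stood at 108.6 ± 3.05 and 98.6 ± 7.57 CPM (SD, n = 5 and 5; log2 fold change -0.14, SE 0.070) and Vps4a at 43.4 ± 3.62 and 45.6 ± 5.94 CPM (0.07, SE 0.10). Over the 9 genes of VPS4 and its regulators 7 were positive and 2 negative, with a median of 0.03. Ist1, an ESCRT-III-like protein, had a value of 0.03 and Spast, the microtubule-severing ATPase that ESCRT-III recruits, 0.01. Pdcd6ip encodes ALIX, which binds CHMP4 proteins directly, and had means of 248.5 ± 5.58 and 229.8 ± 17.4 CPM (SD, n = 5 and 5; log2 fold change -0.11, SE 0.072). The 5 adaptors and deubiquitinases had a median of 0.07, with 4 positive.

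The 6 abscission partners, which act in or control the last cut between dividing cells, had a median of 0.25 with 5 positive, and none passed the test. The median was 0.04 without labelled-deleted tumour 1 and -0.19 without labelled-deleted tumours 1 and 2. Labelled-deleted tumour 1, which had the lowest Chmp4c, was the highest tumour for Aurkb (48.0 CPM), Racgap1 (99.5 CPM) and Cep55 (23.4 CPM). It was not the highest for the other partners. Kif23 was highest in wild-type tumour 3, Zfyve19 in wild-type tumour 2 and Ulk3 in labelled-deleted tumour 3. A link between the partners and Chmp4c was not tested. Mitd1, a regulator of abscission among the VPS4 genes, was highest in labelled-deleted tumour 1 at 31.1 CPM. The 9 other tumours had 11.0 to 15.3 CPM of it. Cep55 is counted both here and among the adaptors.

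**Figure D5:**
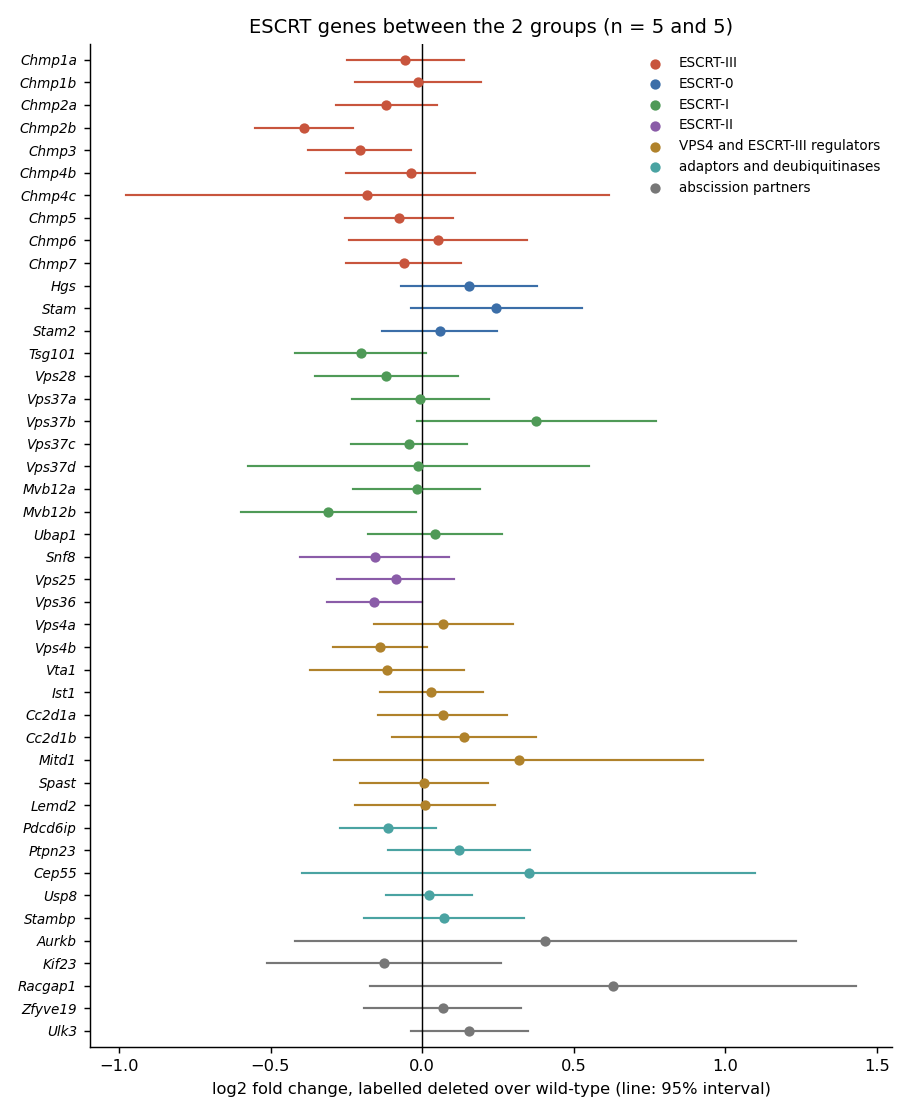
Log2 fold change (labelled deleted over wild-type, n = 5 and 5) with its 95% interval for the 10 ESCRT-III genes and 34 other genes of the pathway, coloured by list. Points left of the line at 0 are lower in labelled-deleted tumours, and Chmp2b at -0.39, the gene chosen on this contrast, is shown as a description, and Chmp4c, Cep55, Aurkb and Racgap1 have the widest intervals.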

How the data were processed

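Polyadenylated RNA of 10 tumours was made into libraries with the KAPA mRNA HyperPrep kit and sequenced (Illumina NovaSeq), per the labels' protocols. The main file, as the authors deposited it, holds estimated counts by gene for all tumours. They also deposited normalized log2 values for 25407 genes in 1 file per tumour, used in a single alternative. RSEM 1.3.3, HISAT2 2.2.1, DESeq2 1.32.0, FastQC 0.11.9 and bcl2fastq 2.0 were used with build mm10, per the submitters' processing notes. Neither the annotation release nor the strand setting is stated in the sources used here. Of the deposited estimated counts 7.96% were not whole, and 0 of the members' values.

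Estimated counts were rounded, filtered with filterByExpr of edgeR 4.0.16 (minimum count 10), scaled by TMM and tested with the quasi-likelihood F test (robust dispersions, Benjamini-Hochberg adjustment over 16565 genes, threshold 0.05). CPM used scaled library sizes, and log2 CPM a prior count of 2. Positive log2 fold changes mean higher in labelled-deleted tumours, and intervals are at 95%. With a common biological coefficient of variation of 0.355, precision was limited by differences between tumours more than by counting. Libraries within a group differed beyond sampling noise (lowest chi-square per degree of freedom 25.5), and the most alike libraries of all came from different groups (13.2). The series calls the libraries biological replicates, and the labels do not say that each came from its own animal, so p-values measure the spread between these samples. Levels per length used GENCODE M21 exons. All 10 identifiers matched GENCODE M21. The pipeline was tested on simulated data.

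Members, lists and tests were chosen with earlier results of these data known. Named genes were the members, the pathway genes, the 5 highest and 3 lowest by r with Chmp2b, the 5 highest with group means subtracted, and the neighbours within 500 kb. Alternatives were DESeq2 1.42.0, limma-voom (limma 3.58.1), other scalings and filters, the deposited log2 values, a block by replicate number, and leaving out libraries. Choices made once the data had been examined were a block by tumour ID number, the family mean without Chmp4c and the order by longest transcript. The ratios, shares, summed level and likeness without labelled-deleted tumours 1 and 2 were also such choices. R was 4.3.3 and Python 3.11.15.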

Additional observations from a re-analysis of the deposited data

Results flagged for a closer look

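In groups of 5 tumours, a tumour was picked out where its gap to the nearest other was above Dixon's 95% critical share of the range of the group. Chance flags about 1 in 20 groups, and 7 of 106 groups examined were picked out. One member was among them: Chmp2a in labelled-deleted tumour 2 stood at 80.6 CPM, above the 69.7 to 72.0 CPM of the 4 other labelled-deleted tumours. Mitd1 in labelled-deleted tumour 1 was at 31.1 CPM against 11.0 to 15.3 CPM. Ubap1 in labelled-deleted tumour 3 was at 43.8 CPM against 53.6 to 56.0 CPM. Cc2d1a in wild-type tumour 1 was at 41.5 CPM against 48.4 to 50.9 CPM, and Zfyve19 in wild-type tumour 2 was at 19.7 CPM against 14.8 to 15.2 CPM. Lymphocyte markers summed to 223 CPM in labelled-deleted tumour 3 against 4.63 to 34.4 CPM, and intestinal epithelium markers to 2687 CPM in labelled-deleted tumour 2 against 37.3 to 95.5 CPM.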

How the results depend on the processing

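Over 21 alternatives, the log2 fold change of Chmp2b stayed negative, from -0.42 to -0.35 with single libraries left out and from -0.41 to -0.29 otherwise. Chmp2b was chosen on this contrast in the same tumours, so a stable sign is no support for it. The value of -0.29 came from the deposited log2 values with limma. Every member had a log2 fold change of smaller size there than with limma-voom, such as -0.15 against -0.20 for Chmp3. The shift was thus not particular to Chmp2b, and its cause was not tested. DESeq2 called 7 genes and 1 member where edgeR called 0. The replicate numbers did not pair the tumours: same-numbered tumours deviated with correlations from -0.02 to 0.39, and 2 of 5 wild-type tumours correlated best with their own number. With the replicate block the value of Chmp2b was -0.39 (SE 0.0908) and 0 genes passed. Tumour ID numbers occur in both groups for 8 tumours. The best partner of 4 of 5 wild-type tumours in the other group had the same number, and correlations of the 5 pairs that share one ran from -0.47 to 0.39. A block by that number, added after the data were seen, gave -0.35 (SE 0.0884) for Chmp2b, 0.024 for Chmp4c, -0.029 for Chmp6 and 0 genes past the threshold. The share of Chmp2b in the family was 8.88% with longest transcripts in place of 10.6%. Signs turned for Chmp1b (leave-one-out range -0.076 to 0.023), Chmp4c (-0.42 to 0.056) and Chmp6 (-0.036 to 0.13, and -0.14 without labelled-deleted tumours 1 and 2). The family median without Chmp2b ran from -0.14 to -0.04, and the median of all genes from -0.004 to 0.03. In the pathway lists 0 genes passed in every setting.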
